A study of Neurospora crassa with 18 samples.

Results

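NCU02545 and NCU02546 are neighbouring, unnamed protein-coding genes of the filamentous fungus *Neurospora crassa*. They are 2 of the 9774 genes in the deposited table. They were chosen because, by the ratio of means among the genes called and above 0 in both groups, NCU02545 shows the largest fall upon phosphate starvation and the largest rise upon deletion of *nuc-1*, and NCU02546 because it lies next to it. Their values in those comparisons therefore describe how they were chosen and are given without a test. The study's text names neither gene, and no role is given for them here. The table used for positions lists no gene products, and the annotations given below for some other genes did not come from it.

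Phosphate is needed for nucleic acids, lipids and ATP, and fungi respond to its loss by secreting phosphatases and inducing phosphate transporters. In *N. crassa* this response is driven by the transcription factor NUC-1, which is kept inactive when phosphate is plentiful. The transcription factor NUC-3 is described in the study as a repressor of phosphate acquisition genes late in starvation. Genes for making ribosomes, which hold much of the phosphate of a cell, are typically among those turned down in starved fungi.

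Transcripts were measured by poly(A) RNA-seq in 18 libraries of mycelia, with 3 libraries in each of 6 groups. All cultures were pregrown in Vogel's minimal medium with sucrose, washed and moved to Fries medium in constant light at constant temperature. In Experiment 1, wild type FGSC 2489 of mating type *A* was held at 7 mM or 0 mM phosphate for 4 h. In Experiment 2, the same wild type and Δ*nuc-1* (FGSC 11448, *nuc-1*::HygR, mating type *a*) were both held at 0 mM for 4 h. In Experiment 3, wild type FGSC 4200 and Δ*nuc-3* (FGSC 11356, *nuc-3*::HygR), both of mating type *a*, were held at 0 mM for 12 h. Each deletion was represented by 1 strain, in which a hygromycin resistance cassette replaces the gene. In Experiment 2 the deletion and the mating type changed together and cannot be told apart. The 12 h time point cannot be told apart from the strain or from the experiment. The 3 experiments differed in sequencer and read length, and Experiment 1 was also sequenced at another centre than Experiments 2 and 3. The study states that replicate cultures were inoculated independently.

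The values are TPM (Salmon's length-corrected share of each library's transcripts, scaled so that every library has the same sum), and the sequencing depth behind them is unknown. The labels held in these libraries. *nuc-1* stood at 1.87 to 2.25 TPM in Δ*nuc-1* and at 23.4 to 41.3 TPM in its wild type. *nuc-3* stood at 0.397 to 1.46 TPM in Δ*nuc-3* and at 108 to 227 TPM in its wild type. *matA-1*, a mating type *A* gene, was at 1.37 to 21.1 TPM in the 9 *A* libraries and at 0 to 0.0609 TPM in the 9 *a* libraries. *pho-2*, the repressible alkaline phosphatase gene, was at 7.91 to 10.1 TPM at 7 mM and at 2310 to 5510 TPM in the 9 starved wild-type libraries. *hex-1*, a gene for the Woronin body that plugs hyphal pores, was at 2650 to 6840 TPM throughout, as mycelium should have it.

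The pair lies on chromosome I of assembly NC12. NCU02545 spans positions 2684821 to 2686339 (1519 bases) and NCU02546 spans 2686486 to 2689633 (3148 bases), with 146 bases between them. Each has 1 annotated transcript. NCU02544, annotated as an ABC transporter, a class of membrane pump, spans 2680650 to 2686310 and covers 1490 bases, or 98.1%, of the span of NCU02545. Of the 9773 genes with a position, 139 (1.42%) lie to at least 90% within another gene. The table used for positions gives no strand, so reads from NCU02545 and NCU02544 may not be fully separable, and the values of NCU02544 are set beside those of NCU02545 below.

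In wild type at 7 mM phosphate, NCU02545 was transcribed at a middling level, at 29.8, 27.5 and 33.0 TPM in replicates 1, 2 and 3. Between 60.4% and 65.0% of all genes had a lower value in those libraries. After 4 h without phosphate it was nearly absent, at 0.075, 0 and 0.0927 TPM. The groups did not overlap, as was so in this direction for 37.9% of the genes tested, and the highest starved library lay under 0.1 TPM. A lower value in bulk RNA can mean less RNA per cell or fewer expressing cells, which cannot be told apart.

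NCU02546 was among the better transcribed genes at 7 mM phosphate, at 99.2, 102 and 100 TPM, above 85.5% to 85.9% of genes. After 4 h without phosphate it stood at 14.6, 9.38 and 17.6 TPM. It was lower in every starved library, but its transcripts remained well detected there.

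**Figure D1:**
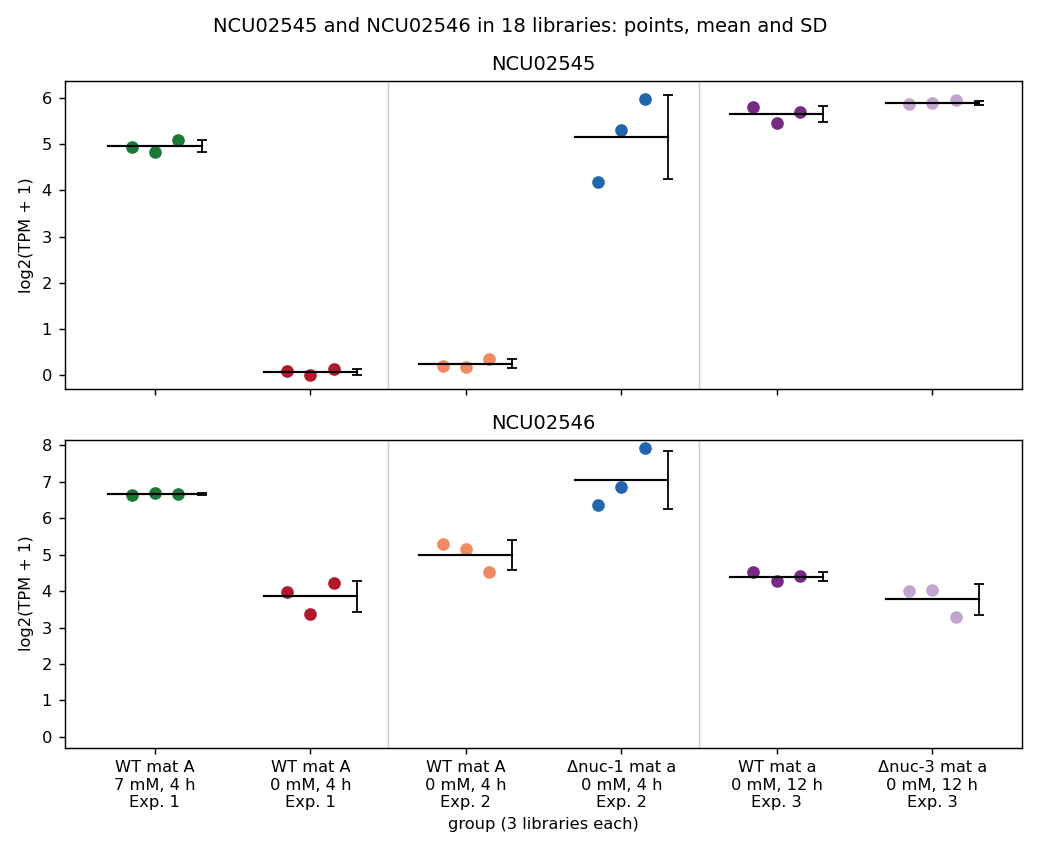
Level of NCU02545 (top) and NCU02546 (bottom) as log2(TPM + 1), with 1 point per library, a bar at the mean of the 3 libraries and an error bar of 1 SD; grey lines part the experiments. NCU02545 lies near 0 in the 6 wild-type libraries starved for 4 h and at 17.1 to 61.8 TPM in the other 12, whereas NCU02546 is also low at 12 h.

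To compare libraries within an experiment, TPM were rescaled by the median ratio of their genes to a common reference. On that scale NCU02545 averaged 35.0 at 7 mM and 0.0471 at 0 mM, a ratio of means of 744-fold. The log2 fold change, computed after adding 1 TPM and therefore smaller, was −5.1 (SE 0.094). The fold rests on values close to 0. It was 496-fold without starved replicate 2, the library at 0, and 1150-fold without starved replicate 3. With TPM as deposited it was 539-fold. NCU02546 averaged 117 ± 1.56 at 7 mM and 11.8 ± 3.52 at 0 mM (SD, n = 3), 9.9-fold lower, with a log2 fold change of −3.24 (SE 0.19).

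A gene was called in this comparison when its adjusted p was under 0.05, its mean changed at least 4-fold and it reached 10 TPM in either condition. By this rule 3.59% of the 8396 genes tested were called lower. Ordered by the ratio of means, NCU02545 was 2nd and NCU02546 was 106th of those 301 genes. The gene ahead of NCU02545, NCU17101, was listed at 0 in the starved libraries and has no finite ratio. The next after NCU02545 were NCU02675 (*rbg-27*), an RNA-3′-phosphate cyclase gene, at 196-fold, NCU03561 at 29.8-fold and NCU03092 at 25.9-fold. This order restates how NCU02545 was chosen.

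NCU02545 was also low in the starved wild type of Experiment 2, at 0.156, 0.13 and 0.286 TPM. In Δ*nuc-1* under the same starvation it stood at 17.1, 38.9 and 61.8 TPM. Every Δ*nuc-1* library exceeded every wild-type library, as was so for 21.3% of the genes tested, and the Δ*nuc-1* libraries themselves spread widely. On the rescaled values the means were 0.183 and 42.7, a ratio of 233, and the log2 fold change was 5.0 (SE 0.42). The ratio ranged from 158 to 340 when each library was left out in turn.

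NCU02546 was at 38.0, 34.9 and 21.8 TPM in the starved wild type of Experiment 2 and at 81.6, 114 and 242 TPM in Δ*nuc-1*. The groups did not overlap. The rescaled means were 28.9 ± 5.53 and 159 ± 102 (SD, n = 3), 5.5-fold higher in Δ*nuc-1*, with a log2 fold change of 2.25 (SE 0.38). Without Δ*nuc-1* replicate 3 the ratio was 3.48, below the 4-fold limit, and the call was lost.

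In this comparison 1.28% of 8037 genes were called higher. NCU02545 ranked 1st and NCU02546 18th of these 103 genes by the ratio of means. The next after NCU02545 was *mfa-1*, a mating pheromone precursor gene, at 13.1-fold, followed by NCU07714 at 10.4-fold and NCU03092, also near the top in starvation, at 9.7-fold. Deletion and mating type changed together here, so no rise in this list can be assigned to the deletion alone. NCU02545 was at 17.1 TPM or more in all 9 mating type *a* libraries, each of them starved. In the 9 *A* libraries it was at 27.5 to 33.0 TPM with phosphate and at 0 to 0.286 TPM without. The part of the mating type in its level was not tested, since neither an *A* strain lacking *nuc-1* nor an *a* wild type at 4 h is among these libraries.

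The 3 Δ*nuc-1* libraries kept the same order for both genes, with replicate 3 the highest. Other genes had this order too, but those given here were picked by their calls on these same libraries. For the 93 other genes called both lower in starvation and higher in Δ*nuc-1*, the median rescaled TPM was 29.9, 48.3 and 89.8 in replicates 1, 2 and 3. *rbg-40*, a gene of the *rbg* series like *rbg-27*, was at 10.2, 19.8 and 27.6. Fewer genes were called when Δ*nuc-1* replicate 3 was left out, 14 higher in place of 103. The choice of these genes thus leaned on replicate 3, and their order is not independent of it.

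At 12 h without phosphate the neighbours parted. NCU02545 was at 54.9, 43.2 and 50.7 TPM in the wild type, above every 7 mM library and above 69.0% to 72.3% of genes. NCU02546 was at 21.8, 18.3 and 20.2 TPM in the same libraries, far below its level at 7 mM and above 47.8% to 49.0% of genes. A description of NCU02545 as switched off by starvation therefore held for the mating type *A* wild type at 4 h and not for the *a* wild type at 12 h. Time, strain, mating type and experiment changed together between them and cannot be told apart. No library of the *a* wild type with phosphate is among these.

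The ratio of NCU02546 to NCU02545 within a library does not depend on the scaling of libraries. It was 3.03 to 3.71 at 7 mM and 2.94 to 4.77 in Δ*nuc-1*. It rose to 190 and 195 in the starved libraries of Experiment 1 that had a value above 0, and was 76.1 to 268 in the starved wild type of Experiment 2. At 12 h it was turned over, at 0.397 to 0.424 in the wild type and 0.143 to 0.264 in Δ*nuc-3*. NCU02546 was the more abundant transcript in all 12 libraries at 4 h and the less abundant in all 6 at 12 h.

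**Figure D2:**
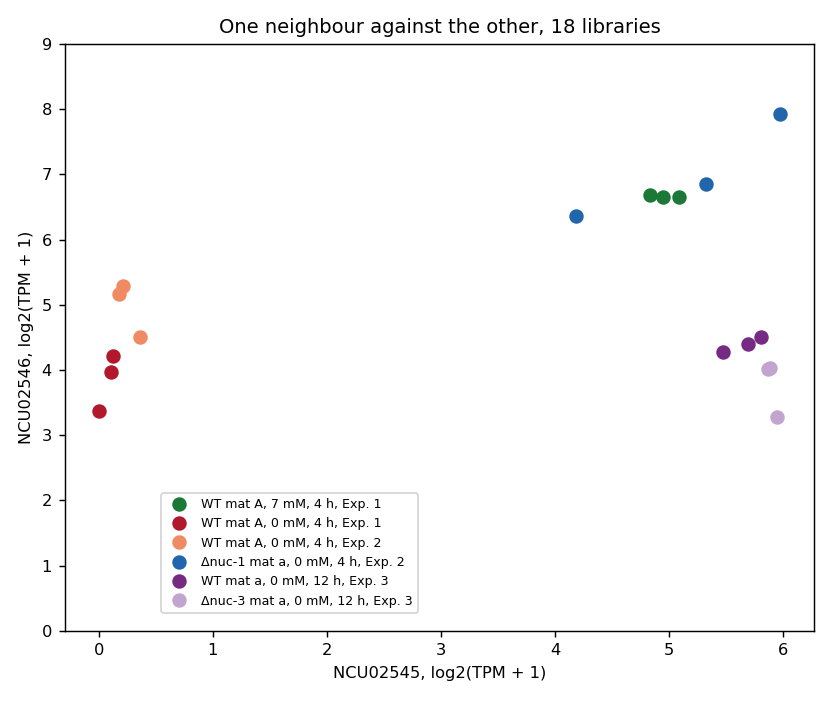
NCU02545 (horizontal) against NCU02546 (vertical) as log2(TPM + 1) in the 18 libraries, coloured by group. Starved wild type at 4 h lies at the left with both genes low, 7 mM and Δ*nuc-1* libraries at the upper right with both high, and the 6 libraries at 12 h at the lower right, where NCU02545 is high and NCU02546 is low.

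With all 18 libraries rescaled together, the order of the groups could be described side by side. NCU02545 was lowest in starved wild type at 4 h, at 0 to 0.0757 in Experiment 1 and 0.134 to 0.347 in Experiment 2. It was at 30.2 to 36.0 at 7 mM, 42.3 to 48.4 in wild type at 12 h and 51.8 to 59.8 in Δ*nuc-3*. The Δ*nuc-1* libraries, at 19.7 to 78.9, overlapped these last 3 groups and could not be ordered among them. NCU02546 was lowest in Δ*nuc-3* at 12 h and starved wild type of Experiment 1, at 8.57 to 13.9 and 7.75 to 14.4, which overlapped. It then stood at 18 to 19.2 in wild type at 12 h and 26.4 to 36.8 in starved wild type of Experiment 2. It was highest at 7 mM, at 109 to 112, and in Δ*nuc-1*, at 93.9 to 309, which again overlapped.

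The 12 h level of NCU02545 was then set against the other genes with the same calls. Counting the pair, 95 genes were called both lower in starvation and higher in Δ*nuc-1*. NCU02545 was the only 1 of the 95 whose level in wild type at 12 h was above that at 7 mM, by 0.45 on the log2 scale. Among 6993 genes this difference was 2010th from the top, with a median of −0.02. The 95 were chosen for a fall from 7 mM, so they are not a neutral background. The median of the 95 was −1.89 and the lowest −4.62. The nearest to it were *gch-1* at −0.59 and *rbg-40* at −0.65, and NCU02546, at −2.52, was 83rd from the top. Against the starved wild type at 4 h of Experiment 2, NCU02545 was higher at 12 h by 5.27, the top value of the 95 and 20th of 6993 genes. *rbg-40* followed at 3.05, *gch-1* at 2.48 and NCU02675 at 1.52, while the median was −0.27 and NCU02546 was at −0.80. Of the 95, 37 lay above 0. Against the starved wild type of Experiment 1, NCU02545 was higher by 5.48, again the top value. There the median was 1.01, 90 of the 95 lay above 0 and NCU02546 was at 0.69. The sign for NCU02546 and for the median thus depended on which experiment gave the 4 h level. NCU02545 was chosen by a fall and a rise that rest on its low levels in starved wild type at 4 h. Those levels are subtracted in the differences from 4 h, so its top places there partly restate the choice. All these differences cross experiments and were looked at after the levels were known, so they carry no test.

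**Figure D3:**
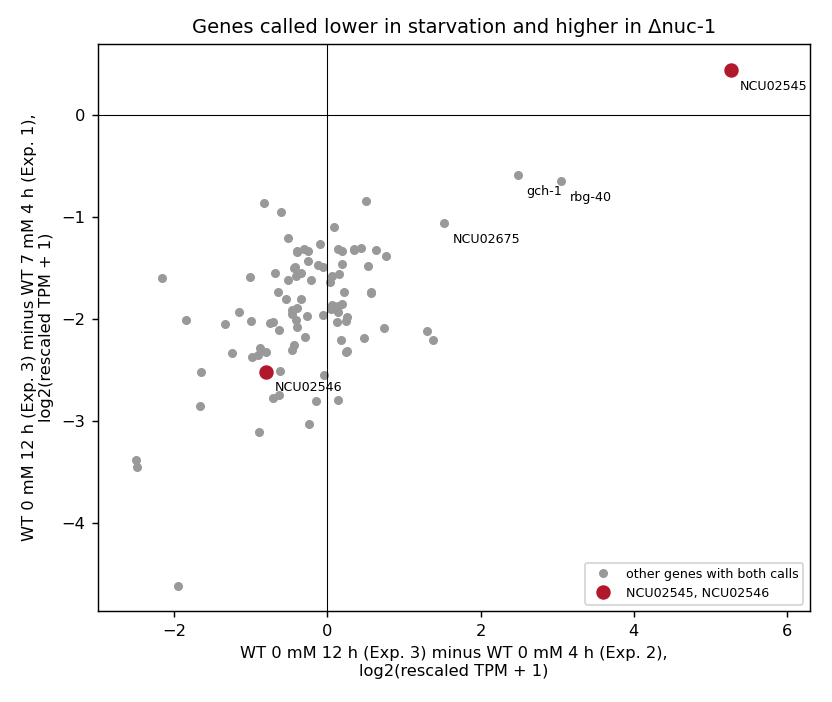
Each point is 1 of the 95 genes called lower in starvation and higher in Δ*nuc-1*. The horizontal axis is wild type at 12 h minus starved wild type at 4 h of Experiment 2, and the vertical axis is wild type at 12 h minus wild type at 7 mM, both in log2(rescaled TPM + 1). NCU02545, at 5.27 and 0.45, lies alone at the upper right and NCU02546, at −0.80 and −2.52, lies within the cloud. The horizontal place of NCU02545 partly restates how it was chosen.

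Markers of conidiation, the making of asexual spores, did not move with NCU02545 when summed. The summed TPM of 5 conidiation markers was 58.0 to 75.6 at 7 mM, 5170 to 6770 in the starved wild type of Experiment 1 and 110 to 168 in that of Experiment 2. It was 34.3 to 36.9 in Δ*nuc-1*, 4460 to 7630 in wild type at 12 h and 14900 to 24200 in Δ*nuc-3*. NCU02545 was thus near 0 in groups with a high and with a low sum, and high in groups with a high and with a low sum. A high sum was mostly 1 marker, *eas*. Its median was 6140 TPM, of a median sum of 6600, in starved wild type of Experiment 1. In wild type at 12 h it was 5310 of 5920. Of the others, *con-8* was higher in wild type at 12 h than in starved wild type of Experiment 1, whereas *con-6*, *con-10* and *fl* were lower.

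Deletion of *nuc-3* is the comparison that played no part in the choice of the pair. NCU02545 was at 57.2, 58.1 and 60.7 TPM in Δ*nuc-3*, against 54.9, 43.2 and 50.7 in the wild type. NCU02546 was at 15.1, 15.3 and 8.71 TPM, against 21.8, 18.3 and 20.2. NCU02545 was slightly higher and NCU02546 slightly lower in the deletion, with no overlap between the groups for either gene. Such a separation was found for 29.6% of the 8005 genes tested.

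For NCU02545 the rescaled means were 49.0 ± 2.98 in wild type and 58.9 ± 4.70 in Δ*nuc-3* (SD, n = 3), with a log2 fold change of 0.26 (SE 0.092) in the limma fit. The unadjusted 95% interval ran from 1.03-fold to 1.39-fold, and the adjusted p was 0.18 (limma with Benjamini-Hochberg adjustment). For NCU02546 the means were 19.9 ± 0.562 and 13.0 ± 3.26, with a log2 fold change of −0.61 (SE 0.18). The interval of the ratio ran from 0.488 to 0.881, and the limma adjusted p was 0.13. Neither gene passed the test, and over the libraries left out in turn the adjusted p was 0.13 to 0.41 for NCU02545 and 0.14 to 0.35 for NCU02546. An exact permutation test, two-sided, gave p = 0.1 for each gene, the smallest that 3 against 3 libraries allow. Without adjustment both genes had a limma p under 0.05, at 0.026 and 0.012, as did 21.7% of the genes tested. An adjusted p under 0.05 was reached by 1.72% of genes, and the rule for a call here, which adds a change of at least 2-fold, was met by 0.725%. The intervals do not reach changes as large as those computed for either gene with phosphate or *nuc-1*.

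The flanking genes were set beside the pair. Of the 5 annotated genes on either side, 9 were tested in each comparison and 0 were called, against 7.34% of all genes tested in starvation, 2.1% in Δ*nuc-1* and 0.725% in Δ*nuc-3*. NCU16366, the outermost, stayed under the minimum of 1 TPM. A count of 0 of 9 lies near these shares, and nothing is read from it about how far a change reached.

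NCU02544, whose span covers nearly all of NCU02545, moved the other way. It was at 37.8 to 38.9 TPM at 7 mM and at 64.6 to 78.7 TPM in starved wild type of Experiment 1, a rise of 1.35-fold on rescaled values (limma adjusted p = 0.00051). It was at 74.7, 75.5 and 58.6 TPM in starved wild type of Experiment 2 and at 62.7, 44.6 and 33.7 TPM in Δ*nuc-1*, a ratio of 0.767 (limma adjusted p = 0.15). At 12 h it was at 32.7 to 37.2 TPM in wild type and 26.1 to 33.2 TPM in Δ*nuc-3*. In the Δ*nuc-1* libraries NCU02544 was lowest in replicate 3, where NCU02545 was highest. Whether reads were shared between the overlapping genes was not tested.

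On the other side, NCU02547 lies 1152 bases beyond NCU02546. It was at 142, 141 and 150 TPM at 7 mM and at 506, 624 and 541 TPM after starvation in Experiment 1, a 2.83-fold rise on rescaled values (limma adjusted p = 1.6e-05). In Δ*nuc-1* its ratio was 0.685 (limma adjusted p = 0.065). It thus moved opposite to NCU02546 in Experiment 1. In the starved wild type of Experiment 2, the same strain, it was at 76.4, 60.5 and 82.6 TPM, below its 7 mM level in Experiment 1, so its starved level was not shared by the experiments.

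**Figure D4:**
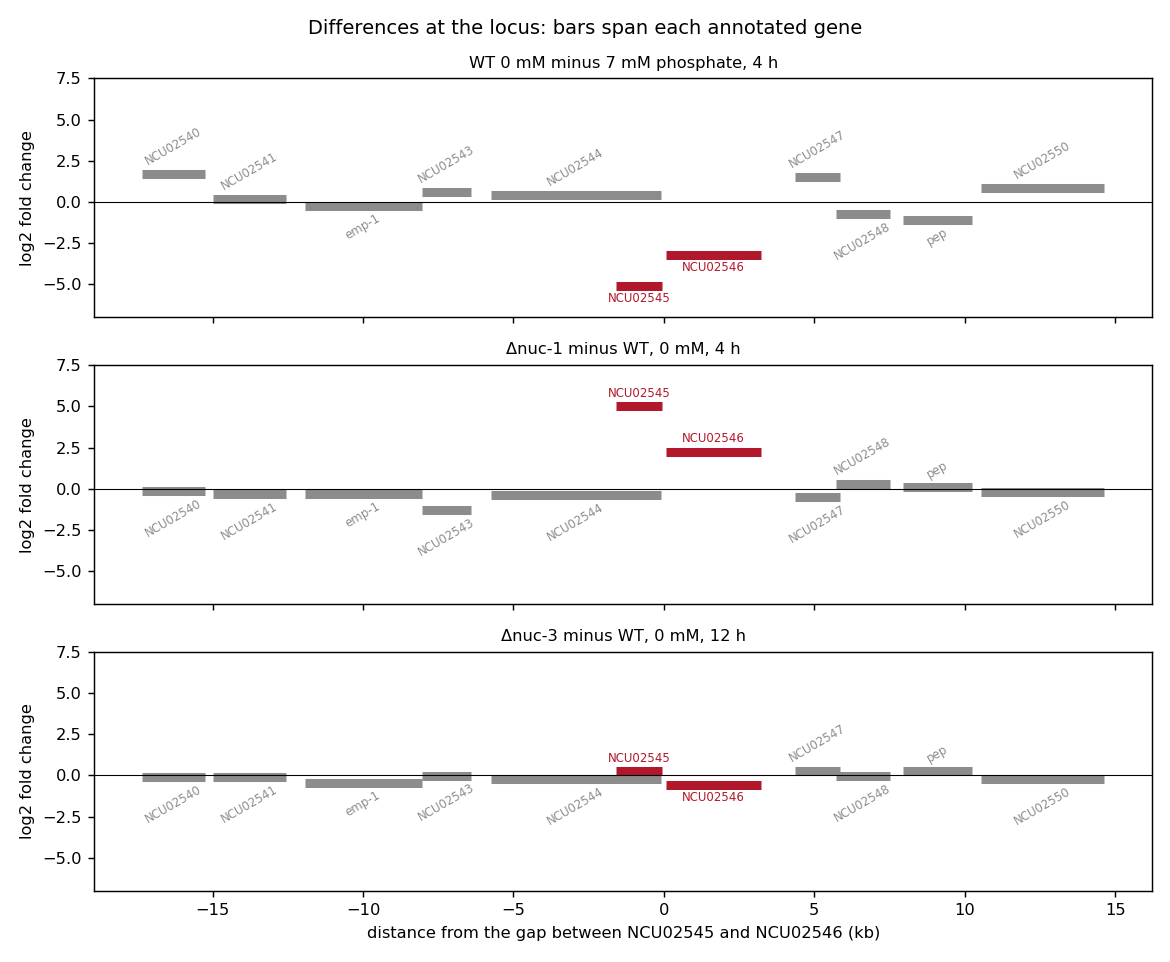
log2 fold change of the pair (red) and of the flanking genes tested (grey) in each comparison, as bars that span each annotated gene, by distance in kb from the gap between NCU02545 and NCU02546. The pair stands at −5.1 and −3.24 in starvation and at 5.0 and 2.25 in Δ*nuc-1*, with its neighbours between −1.3 and 1.7. In Δ*nuc-3* it stands at 0.26 and −0.61.

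The pair was followed across all libraries by Pearson's r of log2 rescaled TPM. The r between the neighbours was 0.344 over 18 libraries (Spearman's rho 0.139), and NCU02546 was 1554th of 6992 genes in likeness to NCU02545. Within Experiments 1 and 2, where a high group faces a low group, it was 0.991 and 0.961 over 6 libraries each. Within Experiment 3 it was −0.898. Without Experiment 3 it was 0.927 over 12 libraries. The libraries fall into groups, so each r mostly restates which groups are high, and no p is given.

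The genes most like NCU02545 were *rbg-40* (r = 0.956), NCU09843 (0.947), NCU09594 (0.935), NCU05285, annotated as a C2H2 transcription factor (0.932), and NCU07743 (0.92). *rbg-40* averaged 39.1 at 7 mM, 1.81 and 2.09 in starved wild type at 4 h, 19.2 in Δ*nuc-1* and 24.6 at 12 h. Like NCU02545 it was low in starved wild type at 4 h and not at 12 h, over a smaller range. NCU05285 went from 51.7 to 29.6 with starvation in Experiment 1 and was at 71.4 at 12 h.

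The genes most like NCU02546 were other ones, NCU03051 and NCU00501 (both r = 0.988), NCU16779 (0.986), NCU05650 (0.984) and NCU03092 (0.983). NCU00501 is annotated as a nucleolar complex protein, from the compartment where ribosomes are assembled. NCU03092, annotated as a nuclear localization sequence binding protein, averaged 368 at 7 mM, 14.1 and 57.3 in starved wild type at 4 h, 548 in Δ*nuc-1* and 14 at 12 h. These genes stayed low at 12 h, as NCU02546 did.

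The 14 genes that the study lists as bound and repressed by NUC-1 gave a comparison at the level of the pathway. The list was chosen by the study on these libraries, so its direction is not independent evidence, and the pair is not on it. In starvation 9 of the 14 were called lower (3.59% of all genes tested), with a median log2 fold change of −2.11 against 0.002 over all genes tested. In Δ*nuc-1* 3 were called higher (1.28% of all), with a median of 1.43 against 0.005. In Δ*nuc-3* 0 of the 14 were called, which is near the 0.725% of all genes, with a median of 0.15 against −0.011. In starvation and Δ*nuc-1* the log2 fold changes of NCU02545 lay outside the range of the list, which ended at −4.14 and at 2.35. NCU02545 was chosen for its changes in those comparisons, so this place restates the choice. At 12 h the median rescaled TPM of the 14 was 9.07 to 11.3 in the 6 libraries, against 40.0 to 40.8 at 7 mM. By that measure NCU02546 was placed like the list at 12 h and NCU02545 was not.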

How the data were processed

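TPM values for 18 poly(A) RNA-seq libraries were used as deposited. The authors made the TPM with Salmon version 1.4.0 and selective alignment (--validateMappings) against transcripts of the OR74A genome, version 12. TPM hold no read counts, so depth is unknown and no counting interval is given.

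Transcripts were summed per gene. Within each experiment, libraries were rescaled by median-of-ratios. Genes averaging 1 TPM or more in 1 or both groups compared were fitted as log2(rescaled TPM + 1) with limma 3.58.1 (lmFit, eBayes with trend; R 4.3.3). P-values were adjusted over all genes tested by Benjamini-Hochberg. The fit was tested on simulated data. Levels across experiments used a rescaling over all 18 libraries and were not tested. Likeness was ranked among genes averaging at least 10 TPM in any group, and the 5 highest were named. Positions came from RefSeq annotation of assembly NC12.

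The pair and the lists were chosen with earlier results of these data known. Alternatives covered scaling, pseudocount, filter, fit over all libraries, replicate block and each library left out.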

Additional observations from a re-analysis of the deposited data

How the results depend on the processing

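The direction of every value of NCU02545 and NCU02546 in the 3 comparisons was kept under each alternative tried. NCU02545 in starvation had a log2 fold change of −4.88 with TPM as deposited, −7.94 with a pseudocount of 0.1 and −5.21 to −5.04 with a library left out. NCU02546 in starvation was at −2.81 with TPM as deposited. NCU02545 in Δ*nuc-1* was at 7.08 with a pseudocount of 0.1. The r between the neighbours was 0.942 after centring each experiment on its mean and 0.927 without Experiment 3, both chosen after seeing the data. The 12 h minus 4 h difference of NCU02545 was 5.41 with TPM as deposited.

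Rescaling mattered for the split of calls. With TPM as deposited, the median of all genes shifted by 0.412 in starvation and −0.168 in Δ*nuc-1* (log2), and the share of calls that were higher went from 51.1% to 68.8% and from 60.9% to 43.2%. The calls numbered 616, 169 and 58 in starvation, Δ*nuc-1* and Δ*nuc-3*. With a library left out they numbered 86 to 223 in Δ*nuc-1* (86 without Δ*nuc-1* replicate 3) and 5 to 47 in Δ*nuc-3* (5 without wild-type replicate 3, and 33, 13 and 22 without Δ*nuc-3* replicates 1, 2 and 3).

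Replicate numbers did not pair the libraries, since same-numbered libraries correlated at −0.683 to 0.0965 in their deviations. In the Δ*nuc-3* comparison, differently numbered libraries correlated at −0.594 to 0.679. Wild-type replicates 1, 2 and 3 correlated at 0.679, 0.666 and 0.27 with Δ*nuc-3* replicates 2, 3 and 1. Whether libraries were paired under other numbers was not tested. The main fit took all libraries as unpaired. With a replicate block the calls numbered 616, 164 and 3, and the adjusted p in Δ*nuc-3* was 0.37 for NCU02545 and 0.31 for NCU02546. Since TPM keep no depth, the level of NCU02545 in starved wild type at 4 h is known only as close to 0. The cause of these shifts was not tested.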
